A study of Mus musculus with 12 samples.

Results

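The genes described here encode 9 receptor channels with which sensory neurons detect heat, cold, irritants, touch, acid and extracellular ATP. They are Trpv1, Trpa1, Trpm8 and Trpm3 of the TRP family, the touch channel gene Piezo2, the acid-sensing channel genes Asic1 and Asic3, and the P2X receptor genes P2rx3 and P2rx4. They were taken by name from the 44345 gene names of the read count table, with earlier results of these data known. All 9 passed the filter on low counts that left 16238 genes to be tested. RNA was sequenced from whole sciatic dorsal root ganglia (DRG, lumbar levels L4 to L6) of C57BL/6 mice aged 5 to 8 weeks. The 4 groups had 3 samples each, and each sample pooled the ganglia of 2 mice. Mice lived for 10 days in standard housing (SH) or in environmental enrichment (EE) and then had a sham operation (Sham) or a sciatic nerve axotomy (SNA), which gave the groups named EE + SNA, EE Sham, SH SNA and SH Sham. The ganglia were taken 24 h after surgery, so that every injured group is an early time point after the cut.

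Sensory neurons of the DRG send one axon branch to skin, muscle or viscera, where the transducer channels sit in the nerve endings, and another to the spinal cord. The channels are unequally spread over neuron types: TRPV1 and TRPA1 mark heat and irritant nociceptors, TRPM8 marks cold-sensing neurons, P2X3 is typical of small unmyelinated neurons, and PIEZO2 is used by touch and proprioceptive neurons. In whole ganglia these neurons are mixed with satellite glia, Schwann cells, vessels and immune cells, and in such bulk samples fewer cells of a type and less RNA per cell cannot be told apart.

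The files held 11343579 to 22871460 reads on genes per sample. The 6 injury response genes used to check the labels (Atf3, Sprr1a, Sox11, Gal, Jun and Gap43) were all higher after SNA, with a log2 fold change of 1.92 for Atf3 over both housings. The summed level of 10 pan-neuronal genes stayed between 10901 and 11548 CPM (counts scaled to the total of the library) in the 12 samples. Genes of other cells moved with SNA: over both housings, 4 of 6 Schwann cell genes and 6 of 9 macrophage genes were higher and none was lower. Of all genes tested, 22.4% were called over both housings in either direction (edgeR adjusted P under 0.05). The Schwann cell sum was 5968 to 8465 CPM in the 6 Sham samples and 7228 to 11542 CPM in the 6 SNA samples, and the macrophage sum was 69.0 to 82.0 and 87.1 to 125 CPM. No gene of these 3 lists was at 0 throughout. Of 6 genes tested for satellite glia, 4 for endothelium and 4 for fibroblasts, 1, 1 and 2 were higher over both housings and none was lower. The counts for satellite glia and endothelium do not exceed the share of all genes by much, if at all. Skeletal muscle genes summed to 770 CPM in SH SNA replicate 2 and to at most 140 CPM in any other sample, and neutrophil genes to 703 CPM in EE + SNA replicate 3 and to at most 302 CPM elsewhere. The study describes EE Sham as an earlier dataset, and the labels give no sequencing date, so that for comparisons between EE Sham and the other groups housing or surgery and a sequencing batch cannot be told apart.

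Per gene length, P2rx3 had the highest level of the 9 genes, with a median of 87.9 FPKM (73.4 to 93.1 FPKM over the 12 samples), above 96.0% of the genes tested. Asic3 followed with a median of 36.6 FPKM, then Trpv1 with 34.4 FPKM, and Asic3 was above Trpv1 in 7 of the 12 samples, among them all 3 of SH Sham and none of SH SNA, so these 2 neighbours were not separated. Piezo2 had a median of 22.9 FPKM. Trpa1, at 17.1 FPKM, and Asic1, at 16.4 FPKM, changed places with surgery: Asic1 was the higher of the pair in each of the 6 Sham samples and Trpa1 in each of the 6 SNA samples. In the SNA samples Trpa1 was at 15.9 to 18.7 FPKM and Asic1 at 12.1 to 14.9 FPKM. P2rx4 had a median of 9.16 FPKM and was above Trpm8, at 7.09 FPKM, in 11 of the 12 samples. Trpm3 was lowest with a median of 3.88 FPKM, which is still above 42.9% of the genes tested. The remaining neighbours in this order kept it in 12 of 12 samples. The smallest count behind any of these values was 288 reads, for P2rx4 in EE Sham replicate 1, so counting error alone (1 SD) was 5.89% at most.

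SNA lowered few of the 9 genes, and those were cold and acid sensors. The genes were compared as reads per gene with edgeR's quasi-likelihood test, with P-values adjusted by Benjamini-Hochberg over the 16238 genes and called at 0.05. After SH SNA against SH Sham, 3 of the 9 genes were called (Asic1, Trpm8 and Asic3), all lower, while 11.2% of all genes tested were called and 5.22% were called lower. After EE + SNA against EE Sham, 2 of the 9 were called (Asic1 and Trpm8), both lower, against 4.77% of all genes and 2.14% lower. Over both housings, in one fit of the 12 samples, Asic1 and Trpm8 were again the genes called, against 22.4% of all genes and 11.0% lower, so that the share called in either direction was close to that of all genes. The same pair was lower in EE + SNA against SH Sham, in which 12.4% of all genes were called and which shares its controls with the SH SNA comparison. The median log2 fold change of the 9 genes over both housings was −0.04, beside 0.01 for all genes tested.

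**Figure D1:**
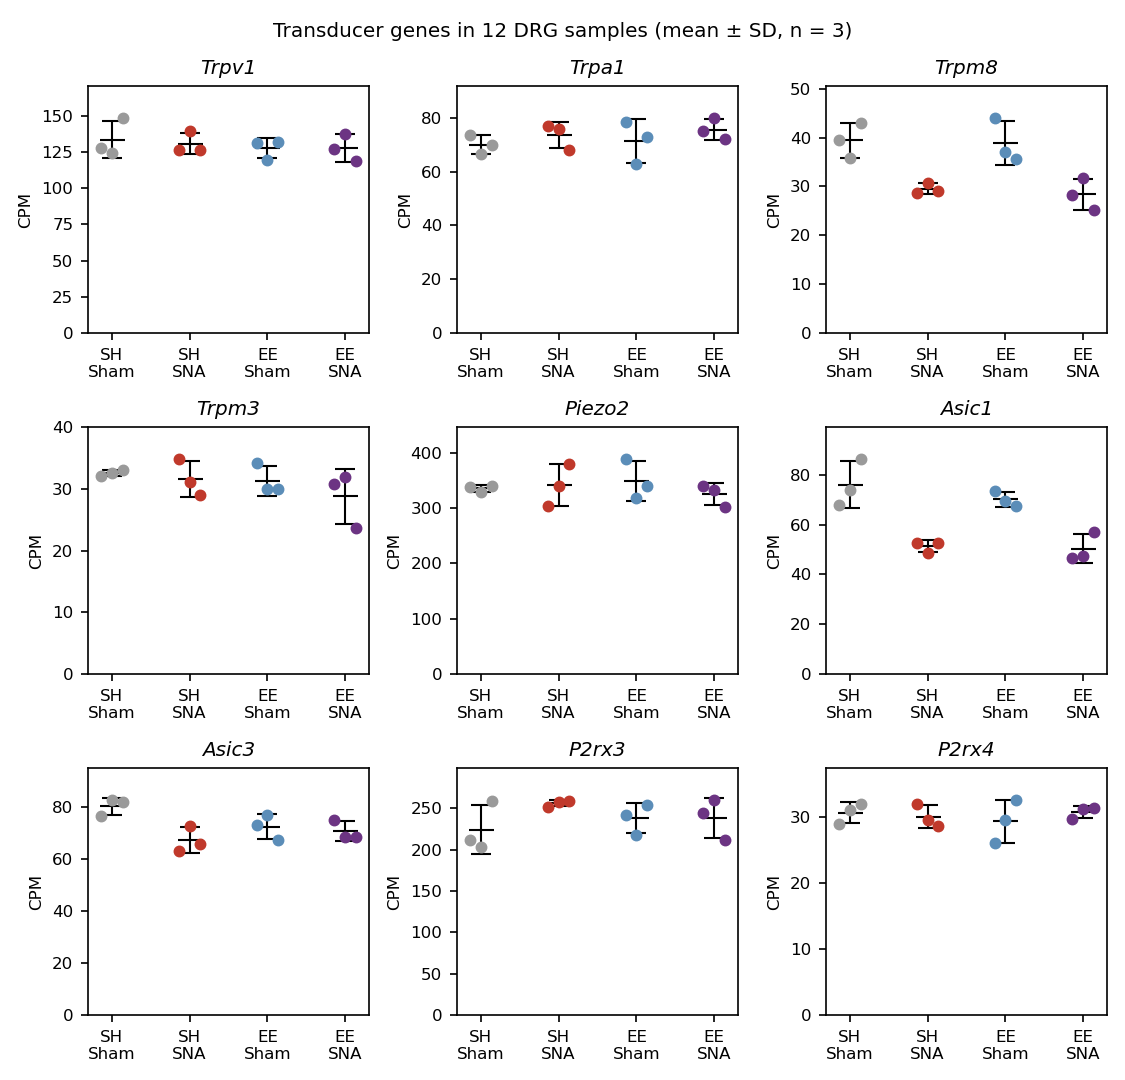
CPM of each transducer gene (vertical axis, from 0) in the 4 groups, with 1 point per sample and the mean ± SD of 3 samples in black. For Asic1 and Trpm8 every SNA sample lies below every Sham sample, and for Asic3 the SH Sham samples lie above the rest apart from 1 EE Sham sample.

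Trpm8 (ENSMUSG00000036251), the receptor channel for cooling and menthol, is encoded on chromosome 1 from 88277661 to 88389293 (GRCm38). Its level was 39.5, 35.9 and 42.9 CPM in the 3 SH Sham samples and 28.7, 30.8 and 29.0 CPM in the 3 SH SNA samples. It was 43.9, 37.1 and 35.6 CPM in EE Sham and 28.3, 31.6 and 25.2 CPM in EE + SNA. All 6 SNA samples were below all 6 Sham samples, which 5.6% of the genes tested also showed. The log2 fold change was −0.42 after SH SNA (SE 0.083, edgeR adjusted P = 0.00583) and −0.44 after EE + SNA against EE Sham (SE 0.10, edgeR adjusted P = 0.0322). Over both housings Trpm8 fell by 25.8%, a log2 fold change of −0.43 (95% interval −0.57 to −0.29, edgeR adjusted P = 1.48e-04). The call within EE was lost in 4 of the fits that left out 1 sample, in which the log2 fold change was −0.36 to −0.50: the adjusted P was 0.0976 or 0.0571 when replicate 1 or 3 of EE Sham was left out, and 0.0923 or 0.0747 when replicate 1 or 3 of EE + SNA was. It was 0.078 in limma on the log2 of FPKM plus 1.

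Asic1 (ENSMUSG00000023017), an acid-sensing sodium channel subunit that is also widespread in the brain, lies on chromosome 15 from 99670368 to 99701130. Its level was 67.8, 74.1 and 86.3 CPM in SH Sham and 52.8, 48.8 and 52.8 CPM in SH SNA. In EE Sham it was 73.5, 69.5 and 67.7 CPM, and in EE + SNA 46.6, 47.5 and 57.1 CPM. Here too all 6 SNA samples were below all 6 Sham samples, and the gap between the lowest Sham sample and the highest SNA sample, EE + SNA replicate 3, was wider than for Trpm8. Asic1 changed most among the 9 genes in each of the 3 comparisons of SNA with Sham. The log2 fold change was −0.56 after SH SNA (SE 0.084, edgeR adjusted P = 9.50e-04) and −0.48 after EE + SNA against EE Sham (SE 0.084, edgeR adjusted P = 0.00697). Over both housings Asic1 fell by 30.4%, or −0.52 on the log2 scale (95% interval −0.65 to −0.39, edgeR adjusted P = 8.60e-06).

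Asic3 (ENSMUSG00000038276), a proton-sensitive subunit best known from muscle and skin afferents, lies on chromosome 5 from 24413392 to 24417835. Its level was 76.4, 82.4 and 81.6 CPM in SH Sham and 62.8, 72.5 and 65.7 CPM in SH SNA. It was 72.8, 76.7 and 67.3 CPM in EE Sham and 74.8, 68.4 and 68.2 CPM in EE + SNA. The SH SNA samples were below all SH Sham samples, as for 15.1% of all genes tested, whereas the EE groups overlapped. The log2 fold change was −0.26 after SH SNA (SE 0.065, edgeR adjusted P = 0.0233) and −0.04 in EE (95% interval −0.20 to 0.12). The difference between these 2 effects was 0.22 on the log2 scale (SE 0.098). Its P-value in the interaction test was 0.04 before and 1.0 after adjustment, so the effects were not shown to differ between housings. The SH SNA call was lost without any of 4 samples, at log2 fold changes of −0.21 to −0.25, with an adjusted P of 0.0918 without SH Sham replicate 2, 0.0738 without SH Sham replicate 3, 0.101 without SH SNA replicate 1 and 0.0686 without SH SNA replicate 3. Over both housings the log2 fold change was −0.15 (95% interval −0.26 to −0.04, edgeR adjusted P = 0.0562), and it was called in 6 of the alternative fits (adjusted P from 0.0215 to 0.0492).

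**Figure D2:**
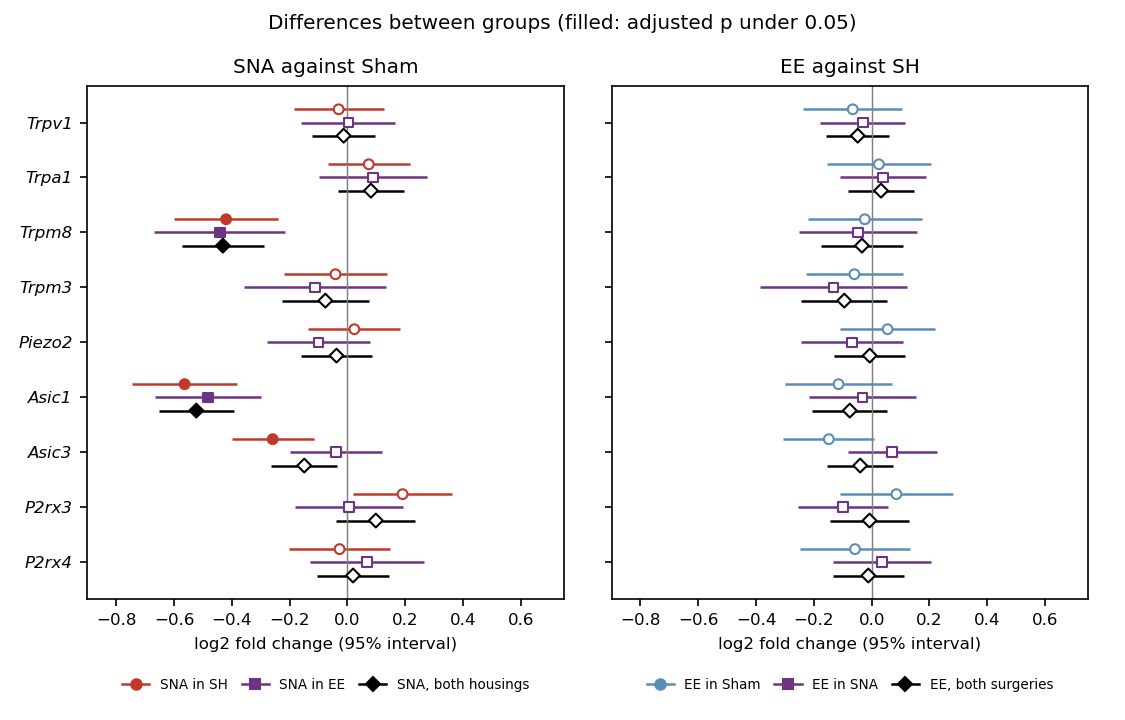
Log2 fold change of each transducer gene (horizontal axis) with its 95% interval, for SNA against Sham on the left and EE against SH on the right, in single comparisons and over all 12 samples. Filled symbols mark adjusted P-values under 0.05, which occur for Trpm8 and Asic1 in all 3 SNA comparisons, for Asic3 in SH, and for none of the 9 genes in the EE comparisons.

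These decreases were also present when the counts were scaled to the summed reads of the 10 pan-neuronal genes in place of all genes. That sum lay between 10901 and 11548 CPM in the 12 samples, so this scaling could move the values only a little. Over both housings the log2 fold change was then −0.52 for Asic1, −0.43 for Trpm8 and −0.15 for Asic3. Without EE + SNA replicate 3, the sample with the highest neutrophil sum, the pooled values were −0.57 for Asic1 and −0.40 for Trpm8. Without SH SNA replicate 2, the sample with the highest muscle sum, they were −0.51 for Asic1 and −0.45 for Trpm8. The part of the higher Schwann cell and macrophage RNA in these decreases was not tested.

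The windows around the RefSeq start sites of the 3 genes that were lower after SH SNA are shown, as the sequence at an annotated start of each. The counts are per gene, so which transcript changed is not known, and the Trpm8 and Asic1 windows lie inside the annotated span of their genes. Each runs from 250 bases before to 50 bases after the start site on GRCm38.p6, plus strand, 5′ to 3′. Of the 9 genes, 6 had windows in the RefSeq table. Capitals mark matches, on either strand, to a cAMP response element (CRE, TGACGTCA), its shorter form TGACG, an AP-1 site (TGANTCA), a STAT site (TTCNNNGAA) or a TATA box (TATAAA). A full CRE would also count as the shorter form.
Trpm8, chr1:88306485-88306784: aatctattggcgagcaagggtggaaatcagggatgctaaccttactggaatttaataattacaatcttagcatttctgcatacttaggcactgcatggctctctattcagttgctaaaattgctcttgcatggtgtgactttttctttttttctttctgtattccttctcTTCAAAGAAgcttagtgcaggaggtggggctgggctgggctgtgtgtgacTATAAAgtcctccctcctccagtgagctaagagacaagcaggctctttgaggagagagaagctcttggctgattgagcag
Asic1, chr15:99691974-99692273: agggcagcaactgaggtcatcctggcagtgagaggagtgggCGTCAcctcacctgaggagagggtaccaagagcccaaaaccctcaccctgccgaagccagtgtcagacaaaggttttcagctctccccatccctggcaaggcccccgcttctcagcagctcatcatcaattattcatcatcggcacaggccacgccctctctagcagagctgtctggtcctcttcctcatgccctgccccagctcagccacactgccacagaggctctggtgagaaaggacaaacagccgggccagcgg
Asic3, chr5:24413201-24413500: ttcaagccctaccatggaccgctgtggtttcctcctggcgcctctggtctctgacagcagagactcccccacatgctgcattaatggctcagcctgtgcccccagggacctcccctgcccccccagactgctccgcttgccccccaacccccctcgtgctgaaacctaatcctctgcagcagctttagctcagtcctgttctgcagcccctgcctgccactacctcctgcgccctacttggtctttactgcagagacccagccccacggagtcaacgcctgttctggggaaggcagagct

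The 3 windows differed in composition. The Trpm8 window was 44.3% G and C with 1 CpG, the Asic1 window 59.7% with 7 CpG and the Asic3 window 62.0% with 7 CpG, beside medians of 52.7% and 7 CpG over 32851 RefSeq promoter windows. The Trpm8 window held a TATA box that starts 30 bases before the start site and a STAT site that starts 80 bases before it. These motifs occur in 13.6% and 8.3% of all windows. The Asic1 window held 1 match to the shorter CRE form, on the other strand and 209 bases before the start site, a motif found in 20.8% of all windows. The Asic3 window held none of the 5 motifs. In the GENCODE annotation the start sites used for Trpm8, Asic1 and Asic3 lie 24, 9 and 59 bases from the nearest start of a coding transcript.

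The shares of the subunits in the summed FPKM of the acid-sensing family are given as a description, with no test. Asic3 made up 51.9% ± 1.82 of the summed ASIC FPKM in SH Sham and 50.4% ± 1.21 in EE Sham, and 54.2% ± 1.59 in SH SNA and 56.6% ± 2.62 in EE + SNA (SD, n = 3), and the Sham and SNA ranges overlapped. Asic1 made up 25.3% ± 1.65 and 25.3% ± 1.02 in the Sham groups and 21.6% ± 1.87 and 20.9% ± 2.75 in the SNA groups. These ranges met, as the lowest share in SH Sham and the highest in EE + SNA were both 24.1%. The Asic2 share went opposite ways in the housings, from 22.5% ± 0.779 in SH Sham to 23.9% ± 0.195 in SH SNA and from 24.1% ± 0.78 in EE Sham to 22.2% ± 3.08 in EE + SNA. Asic2, which joins the same channels, had a median of 16.8 FPKM and was also lower after SNA, by a log2 fold change of −0.27 over both housings (edgeR adjusted P = 0.00274). Asic4 had a median of 0.182 FPKM, and Asic5 was listed at 0 in every sample. Of the 8 other acid sensors described, 4 could be tested, and Asic2 was the 1 called over both housings. This count is close to the 22.4% of all genes called there.

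**Figure D3:**
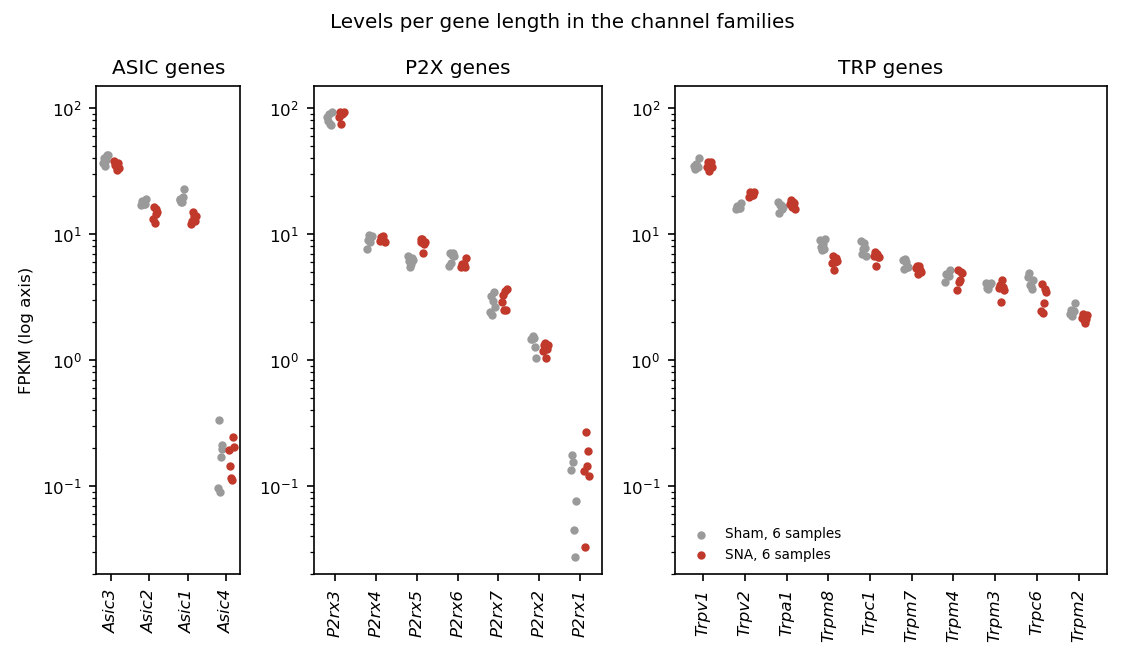
FPKM (log axis) of the ASIC, P2X and TRP genes, with grey points for the 6 Sham samples and red points for the 6 SNA samples. Asic5, which is listed at 0, and the TRP genes with the lowest levels are left out. Asic3 leads the ASIC genes, P2rx3 the P2X genes and Trpv1 the TRP genes.

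Trpv1, the capsaicin and noxious heat receptor (ENSMUSG00000005952, chromosome 11 from 73234292 to 73261242), did not pass the test in any comparison. Its level was 124 to 148 CPM in SH Sham, 126 to 139 CPM in SH SNA, 120 to 132 CPM in EE Sham and 119 to 138 CPM in EE + SNA, and the groups overlapped. The log2 fold change over both housings was −0.01 (95% interval −0.12 to 0.10). Trpa1, the receptor for mustard oil and other reactive irritants (ENSMUSG00000032769, chromosome 1 from 14872648 to 14918862), was at 62.6 to 79.8 CPM. Its log2 fold change over both housings was 0.08 (95% interval −0.03 to 0.19). Trpm3, a heat channel that is also opened by the steroid pregnenolone sulfate (ENSMUSG00000052387, chromosome 19 from 22139046 to 22995410), had a pooled log2 fold change of −0.08 (95% interval −0.23 to 0.07). Its lowest level, 23.6 CPM, was in EE + SNA replicate 3, and the other 11 samples lay between 29.0 and 34.8 CPM. Its 3 EE + SNA samples were all below the 3 SH Sham samples, as for 15.7% of all genes tested, and the log2 fold change of −0.17 in that comparison was not called (edgeR adjusted P = 0.299).

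Trpm8 and Trpm3 share exon bases with genes on the opposite strand in GENCODE, 388 bases (8.2% of its exon bases) for Trpm8 and 628 bases (2.57%) for Trpm3, as does P2rx3 with 51 bases (1.83%), and whether the counting used strand is not given in the sources used here.

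Piezo2 (ENSMUSG00000041482), the mechanically gated channel of touch and proprioception, was at 328 to 339 CPM in SH Sham and 304 to 380 CPM in SH SNA. It was at 318 to 388 CPM in EE Sham and 303 to 339 CPM in EE + SNA. The spread among the SH SNA samples was wider than among the SH Sham samples, and the groups overlapped throughout. The pooled log2 fold change after SNA was −0.04 (95% interval −0.16 to 0.08). Piezo1, the paralog known from vessels and red cells, had 0.697 to 0.776 FPKM in the Sham samples and 0.738 to 1.08 FPKM in the SNA samples, and made up 2.62% to 5.04% of the summed Piezo FPKM. Piezo1 was called higher over both housings, at a log2 fold change of 0.32 (edgeR adjusted P = 0.016). It was 0.12 after SH SNA (edgeR adjusted P = 0.589), with overlapping groups, and 0.52 after EE + SNA against EE Sham (edgeR adjusted P = 0.0325), and the interaction of housing and surgery was not called (edgeR adjusted P = 1.0). Red cell genes summed to 111 to 307 CPM in the Sham samples and 175 to 595 CPM in the SNA samples, and their part in the Piezo1 value was not tested.

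P2rx3 (ENSMUSG00000027071, chromosome 2 from 84998583 to 85037462) encodes the ATP receptor subunit of nociceptors. Its level was 211, 203 and 258 CPM in SH Sham and 252, 257 and 259 CPM in SH SNA. In EE Sham it was 243, 218 and 254 CPM and in EE + SNA 244, 260 and 212 CPM. SH Sham replicate 3 was as high as the SH SNA samples, and the other SH Sham samples were lower. After SH SNA the log2 fold change was 0.19 (SE 0.079), with an unadjusted P-value of 0.0326 and an edgeR adjusted P of 0.155. It was 0.30 without SH Sham replicate 3, with an adjusted P of 0.00777, and the adjusted P was 0.0484 when no filter on low counts was used. In EE the log2 fold change was 0.005 (95% interval −0.18 to 0.19), and over both housings it was 0.10 (95% interval −0.04 to 0.24). Counting the genes with an unadjusted P-value under 0.05, P2rx3 was the fourth of the 9 after SH SNA and the only one that was higher, where 25.2% of all genes passed.

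P2rx4 (ENSMUSG00000029470, chromosome 5 from 122707544 to 122729738), an ATP receptor that is also found in microglia and macrophages, was at 26.0 to 32.5 CPM over the 12 samples. Its pooled log2 fold change after SNA was 0.02 (95% interval −0.10 to 0.14), with overlapping groups in every comparison. P2rx3 made up 72.5% to 78.2% of the summed P2X FPKM in single samples and P2rx4 7.04% to 9.34%. Among the other P2X genes, P2rx5 rose: it had 5.52 to 6.66 FPKM in the 6 Sham samples and 7.09 to 9.15 FPKM in the 6 SNA samples. It changed by 0.40 on the log2 scale after SH SNA, by 0.56 after EE + SNA against EE Sham and by 0.48 over both housings (edgeR adjusted P = 1.29e-04). It was the only one called over both housings of the 4 that could be tested. This count is close to the 22.4% of all genes called there.

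EE changed none of the 9 genes detectably. In EE Sham against SH Sham, 0 of the 9 were called after adjustment and 0 at an unadjusted P-value of 0.05, where 0.00616% and 2.96% of all genes passed, and DESeq2 also called 0. The chosen fit treated these samples as unpaired, and whether equal replicate numbers mark paired samples is not known. An alternative fit that blocked on replicate called 28 genes in place of 1, and still 0 of the 9. In EE + SNA against SH SNA it was again 0 of 9 at either threshold, where 0% of all genes passed the adjusted one and 4.1% the unadjusted one. Over both surgeries the log2 fold changes of EE against SH ran from −0.09 for Trpm3 to 0.03 for Trpa1, and their 95% intervals all lay between −0.24 and 0.15. These intervals pool both surgeries. With 3 samples per group, the intervals within a single surgery were wider, such as −0.39 to 0.12 for Trpm3 in EE + SNA against SH SNA. For P2rx3 in EE Sham against SH Sham the interval was −0.11 to 0.28. Differences smaller than these intervals could not be seen. The largest difference between EE Sham and SH Sham was that of Asic3, with a log2 fold change of −0.15 and an unadjusted P-value of 0.0626. In the interaction of housing and surgery, Asic3 was the 1 gene of the 9 with an unadjusted P-value under 0.05, beside 2.61% of all genes.

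Related genes were taken from lists of each function, and their counts for SNA over both housings are read beside the 22.4% of all genes that were called there. Among the other TRP genes and Ano1, which encodes a heat-activated chloride channel, 18 could be tested, of which 4 rose and 3 fell. Trpv2, a TRPV1 relative found in medium and large neurons, rose by 0.35 on the log2 scale (edgeR adjusted P = 5.10e-06), from 15.9 to 17.8 FPKM in the Sham samples to 19.8 to 21.8 FPKM in the SNA samples. Mcoln2, an endolysosomal channel gene, rose by 1.26 and Pkd2, of the polycystin branch, by 0.29. Trpc7, of the TRPC branch, had a log2 fold change of −0.57. Of the 12 other mechanosensitive channel genes and Piezo modulators tested, 4 rose and 2 fell. Stom, which encodes the membrane protein stomatin, rose by 0.41, Tmc1, the hair cell transduction channel gene, by 1.25 and Tmem63c by 0.23, while Tmem63b had a log2 fold change of −0.19.

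For SNA over both housings, the P2Y receptor genes and genes for ATP release and breakdown that were called were lower. Of 6 P2Y receptor genes tested, P2ry1 was the 1 called, with a log2 fold change of −0.40. Of 10 genes for ATP release and breakdown tested, 3 were called, all lower: the pannexin gene Panx2 at −0.28, the ATP-hydrolysing ectonucleotidase gene Entpd3 at −0.19 and Acpp, whose product makes adenosine from AMP, at −0.23. Of 17 receptors, kinases and scaffolds that sensitise or traffic TRP channels, 3 rose and 8 fell, with a median log2 fold change of −0.25 beside 0.01 over all genes. The median was −0.10 for the pan-neuronal genes, −0.18 for nonpeptidergic, −0.13 for myelinated afferent and 0.09 for peptidergic markers. The prostacyclin receptor gene Ptgir had a log2 fold change of −0.53 and Akap5, the anchor that places kinases beside TRPV1, −1.50, while the bradykinin receptor gene Bdkrb2 rose by 0.83 and S100a10, whose product carries channels to the membrane, by 0.29. The value of Akap5 was imprecise, with an SE of 0.30 after SH SNA. After SH SNA alone the sensitiser list had 2 higher and 5 lower of 17, where 11.2% of all genes were called and 5.22% were lower. After EE + SNA against EE Sham it had 1 higher and 2 lower, where 4.77% of all genes were called and 2.14% were lower.

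**Figure D4:**
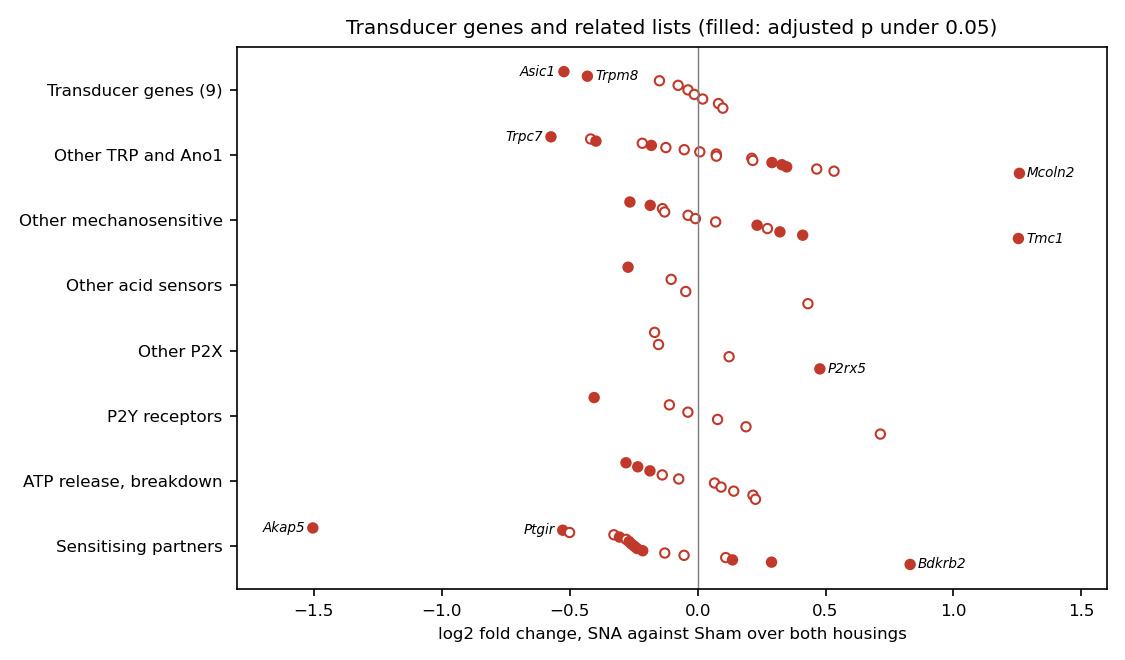
Log2 fold change after SNA over both housings (horizontal axis) of the 9 transducer genes and of the genes tested in 7 related lists, with 1 point per gene and filled points for adjusted P-values under 0.05. Vertical position within a list only separates the points. The called transducer genes lie on the left, while called genes of the other TRP and mechanosensitive lists lie on both sides.

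Markers of neuron types were tested in the same way. Their counts are read beside the 22.4% of all genes that were called over both housings (11.0% lower). Of 5 markers of nonpeptidergic neurons, Mrgprd was the 1 called, with a log2 fold change of −0.47 over both housings. At the unadjusted threshold 3 of the 5 were lower and none was higher, and their median log2 fold change was −0.18. Of 5 peptidergic markers, 2 rose (Adcyap1 and Gal) and none was called lower, though 1 was lower at the unadjusted threshold. Gal is also among the injury response genes used to check the labels, so its rise cannot be read as a change of peptidergic neurons. Of 6 markers of myelinated afferents, 1 rose and 2 fell (Nefh at −0.25 and Nefm at −0.19). Of the 10 pan-neuronal genes, Stmn2 rose and Rbfox3, Snap25 and Isl1 fell, with log2 fold changes of −0.28 for Rbfox3, −0.18 for Snap25 and −0.41 for Isl1. The part of these marker changes in the values of Trpm8 and Asic1 was not tested.

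The genes most like each member over the 12 samples, by Pearson's r of log2 CPM among 12080 genes with a mean of at least 5 CPM, are given as a description. For Trpm8 they were Cplx2 (r = 0.98) and Fam211b (r = 0.97), and for Asic1 Lgi3 and Lcp1 (r = 0.95 each). Piezo2 was most like Fat3 and Ank2 (r = 0.95 each), Trpm3 most like the opioid receptor gene Oprm1 (r = 0.95), and P2rx3 most like Mmp25 (r = 0.95). For Trpv1, Trpa1, Asic3 and P2rx4 the highest r was 0.89 (Lrrc59), 0.91 (Trmt6), 0.92 (Gm10676) and 0.87 (Il17rc). All samples share the 4 group means in these values. Trpm8 and Asic1 had an r of 0.82 with each other over the 12 samples but −0.03 once each group's mean was removed. In contrast, Trpv1 and P2rx3 had an r of 0.91 within the groups, the highest of any pair among the 9 genes.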

How the data were processed

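The authors prepared TruSeq mRNA libraries, sequenced them as paired ends on a HiSeq instrument, aligned the reads to mm10 with TopHat2 2.0.12 and Bowtie2 2.2.3, and counted them per gene with HTSeq. The deposited table holds raw read counts per gene name, with reads that HTSeq left out in separate lines (46.7% to 47.6% of reads on no gene) that were not used. The deposited FPKM, computed by the authors per gene length and library total, follow the counts of each of the 9 genes with a coefficient of variation of 0.0162% and were used for levels between genes.

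TMM scaling in edgeR 4.0.16 (R 4.3.3) followed a filterByExpr filter of 10 counts and a total of 15. Pairs of groups were fitted on their 6 samples with glmQLFit, and the pooled injury, pooled housing and interaction terms on all 12, with two-sided quasi-likelihood F tests and Benjamini-Hochberg adjustment over all genes tested. Alternatives were the likelihood ratio test, DESeq2 1.42.0, other scalings and filters, a replicate block, limma 3.58.1 on FPKM and each sample left out. The scripts were tested on simulated data. The replicate numbers were taken to pair EE Sham with SH Sham, where samples of the same number had r = 0.333, 0.132 and 0.125. Samples of unlike number in these groups had r from −0.331 to 0.197, so this pairing, which rests on these correlations alone, is weakly supported. In EE + SNA against SH SNA, r was 0.053, 0.117 and 0.123 for the same number and −0.127 to 0.040 for unlike numbers. In the other comparisons at least 1 pair had r under 0.1.

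The 9 genes, the lists and the motifs were chosen with earlier results of these data known. The text names all 9 genes and, of each list, at most 4 genes past the adjusted threshold over both housings by smallest P-value, with the 2 genes most like each member. Some genes of the lists are not reported here, and the counts leave them out. Piezo1, further family members and marker genes were named after their values were seen. Positions are from GENCODE on GRCm38, and promoters from RefSeq on GRCm38.p6. Samples are separate pools of mice. Figures were drawn with Matplotlib 3.10.9.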

Additional observations from a re-analysis of the deposited data

How the results depend on the processing

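Asic1 and Trpm8 were lower after SNA under every alternative in SH SNA, in EE + SNA against EE Sham, in EE + SNA against SH Sham and over both housings, and Asic1 stayed past the adjusted threshold in all of them. The number of the 9 genes called in EE + SNA against EE Sham went from 2 to 1 in limma on the log2 of FPKM plus 1 and plus 0.1, and lay between 1 and 2 when each sample was left out, as Trpm8 lost its call. After SH SNA it lay between 2 and 4 over all alternatives. Under the replicate block it was 3 after SH SNA. It was 2 after EE + SNA against EE Sham or SH Sham and over both housings. It was 0 in each comparison of EE with SH and in the interaction. The block thus left each of these counts of the 9 genes unchanged. Over all genes tested, the 774 called in EE + SNA against EE Sham became 1266 in the likelihood ratio test, 1681 without the filter, 1278 with all 12 samples in one fit, 472 in limma on FPKM and 357 to 1062 when each sample was left out. Leaving out single samples gave 1207 to 1697 genes in place of 1817 after SH SNA and 1174 to 2064 in place of 2020 after EE + SNA against SH Sham. Without the filter, 48 genes were called in EE Sham against SH Sham in place of 1, and 17, 132 and 77 in place of 0 for EE + SNA against SH SNA, pooled housing and the interaction. Groups of 3 samples and 288 to 7659 reads per gene and sample limit what can be seen. The causes of these shifts were not tested.

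The remaining changes of direction concern log2 fold changes that were called neither in the chosen fit nor in the alternative. In EE + SNA against EE Sham, Trpv1 turned to −0.0028 with DESeq2, −0.0040 with library size only, −0.013 when scaled to pan-neuronal genes, and −0.0084 and −0.0087 in limma on FPKM plus 1 and plus 0.1. P2rx3 turned to −0.0018, −0.0027, −0.012, −0.0074 and −0.0076 in the same order. P2rx4 in EE + SNA against SH Sham turned to −0.010 with library size only and to −0.013 and −0.014 in limma. Scaling to pan-neuronal genes gave 0.022 for Trpm8 in EE Sham against SH Sham, 0.016, 0.017 and 0.013 for Piezo2, P2rx3 and P2rx4 in pooled housing, and −0.0081 and −0.027 for Trpv1 and Trpa1 in the interaction. With single samples left out, the ranges in SH SNA were −0.079 to 0.052 for Trpv1, −0.12 to 0.017 for Trpm3, −0.060 to 0.10 for Piezo2 and −0.073 to 0.0074 for P2rx4. In EE + SNA against EE Sham they were −0.055 to 0.051 for Trpv1, −0.21 to 0.0033 for Trpm3, −0.091 to 0.0074 for Asic3, −0.062 to 0.079 for P2rx3 and −0.023 to 0.15 for P2rx4. In EE Sham against SH Sham they were −0.11 to 0.017 for Trpv1, −0.043 to 0.11 for Trpa1, −0.11 to 0.041 for Trpm8, −0.024 to 0.12 for Piezo2 and −0.14 to 0.024 for P2rx4. In EE + SNA against SH SNA they were −0.090 to 0.016 for Trpv1, −0.014 to 0.073 for Trpa1, −0.14 to 0.025 for Trpm8, −0.15 to 0.016 for Piezo2 and −0.13 to 0.013 for Asic1, and against SH Sham −0.12 to 0.021 for Trpv1 and −0.041 to 0.040 for P2rx4. For pooled injury they were −0.041 to 0.026 for Trpv1, −0.082 to 0.00079 for Piezo2 and −0.026 to 0.048 for P2rx4, and for pooled housing −0.00027 to 0.072 for Trpa1, −0.053 to 0.038 for Piezo2, −0.047 to 0.035 for P2rx3 and −0.041 to 0.026 for P2rx4. In the interaction they were −0.048 to 0.082 for Trpv1, −0.072 to 0.076 for Trpa1, −0.12 to 0.061 for Trpm8, −0.16 to 0.044 for Trpm3 and −0.019 to 0.15 for Asic1.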
